A study of Homo sapiens with 6 samples.

Results

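Both treated groups of 22RV1 cells, OE and mimics, were pooled into a single mean and set against their common control, gene by gene. 22RV1 is a long-established line of human prostate cancer cells that grows in the absence of androgen. The control group, called NC in the labels, held 2 libraries, as did OE, in which the long noncoding RNA MAGI2-AS3 was overexpressed, and mimics, in which miR-106a-5p was raised. All 6 libraries carry the label day 2. The labels speak of overexpression plasmids for both agents while the sample titles say mimics, so the form of the microRNA is uncertain, and they do not say what the NC cells received. They also do not state that replicates came from separate cultures. The p-values below therefore reflect the spread among libraries alone, and that spread may be technical. The genes described were the 12360 annotated genes with a mean of at least 0.5 FPKM (fragments scaled by transcript length and library size), out of 24872 rows in the deposited table. MAGI2-AS3 itself was not analysed here.

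A long noncoding RNA can bind a microRNA and keep it from its targets, and the microRNA in turn lowers messenger RNAs that carry its seed match in their 3′ untranslated region (UTR). MAGI2-AS3 and miR-106a-5p are described in the series title as parts of one such axis, in which more noncoding RNA and more microRNA would be opposite interventions. A gene that is low in both OE and mimics is low in them only relative to NC. In such a design the same 2 control libraries enter both comparisons, so a feature of the NC cells and a response common to both agents give the same pattern and cannot be told apart.

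The sequence of the microRNA and of its seed matches is shown first, because the 3 genes that fell most carry seed matches and yet were low in OE as well as in mimics. The mature microRNA is given 5′ to 3′ with its seed, bases 2 to 8, in capitals. It lies at chrX:134170244-134170266 on the minus strand (RefSeq, GRCh38.p14).
hsa-miR-106a-5p: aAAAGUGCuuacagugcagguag

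The 3 genes with the largest fall shared by OE and mimics, EPHA4, GJA3 and RGMA, carry the seed's complement GCACTTT in their annotated 3′ UTR (GENCODE 29, GRCh38). The match is in capitals within its flanks, on the strand of the messenger RNA. EPHA4 has 2 matches, at chr2:221425960-221425988 and chr2:221425941-221425969, both on the minus strand. GJA3 has 1, at chr13:20138569-20138597 on the minus strand. RGMA has 3, of which the first lies at chr15:93043555-93043583 on the minus strand.
EPHA4 first match: acctcatccatGCACTTTaattgaagaac
EPHA4 second match: attgaagaactGCACTTTttttacttcgt
GJA3: ggtcagggaagGCACTTTtcttcctaatt
RGMA first match: taaaaagtgaaGCACTTTattttggttgt

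All 6 libraries read as prostate luminal cells. The 12 luminal markers, HOXB13 among them, were each at a mean of 5 FPKM or more and summed to 1035 to 1421 FPKM per library. Basal markers summed to 1.34 to 3.48 FPKM, with KRT5 and KRT17 at 0, and leukocyte markers to 2.30 to 3.52, with CD3D, CD3E, MS4A1 and TYROBP at 0. Endothelial markers summed to 0.391 to 0.598 FPKM, with CDH5 and KDR at 0. Fibroblast markers summed to 85.95 to 90.6 FPKM in NC and OE and to 180 and 108 in mimics, nearly all of it LUM, with FAP and POSTN at 0. Markers of other prostate cancer lines summed to 220 and 241 FPKM in NC, 165 and 158 in OE and 249 and 224 in mimics. LCN2 and PLAU were at 0. Most of the sum was LGALS1 (102 and 119 FPKM in NC), EGFR (82.6 and 78.5) and CD44 (22.1 and 30.0). Of these 17 markers, 11 averaged at least 0.5 FPKM and 3 at least 5. The 13 mitochondrially encoded genes took 8.29% to 9.67% of the FPKM sum in NC and OE, 6.23% in the first mimics library and 0.533% in its replicate 2. The part of these differences in the results was not tested, apart from a rescaling without the mitochondrial genes. The depth read from the smallest FPKM steps was about 15900000 to 22400000 fragments per library. In bulk RNA, fewer cells of a type and less RNA per cell cannot be told apart.

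The mean of OE and mimics was lower than NC for more genes than it was higher. Of 12360 annotated genes, 132 passed in the treated mean against NC (1.07%, limma, adjusted p under 0.05), of which 91 fell (0.736%) and 41 rose (0.332%). In the component comparisons, 35 genes passed in OE against NC (0.283%), 2 of them higher (0.0162%) and 33 lower (0.267%). In mimics against NC 1058 passed (8.56%), with 556 higher (4.5%) and 502 lower (4.06%). Directly between OE and mimics, a contrast that uses no NC library, 1039 genes passed (8.41%), 342 higher in OE (2.77%) and 697 lower in OE (5.64%). The rescaling without mitochondrially encoded genes gave 122 falls and 27 rises in the treated mean. The count in the treated mean was 8 without NC replicate 1 (5 higher and 3 lower, so the balance turned), 14 without NC replicate 2 (6 higher and 8 lower), 41 and 33 without OE replicate 1 and 2, and 419 and 1204 without mimics replicate 1 and 2. A fit without a library has fewer degrees of freedom and estimates the spread anew. With 4 treated and 2 control libraries the smallest p of an exact permutation test is 0.0667, and single genes were therefore tested with limma alone. The 132 genes fall into 57 that moved alike in both groups (0.461% of all tested) and 75 that did not meet the conditions for this. A gene was counted as shared when all 4 treated libraries lay on one side of both NC libraries and the smaller of its OE and mimics changes had the same sign as the larger and at least 0.5 of its size. It was counted as one-sided otherwise. Without any test, 1114 of the 12360 genes (9.01%) met the same side and size conditions, 681 of them lower and 433 higher.

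**Figure D1:**
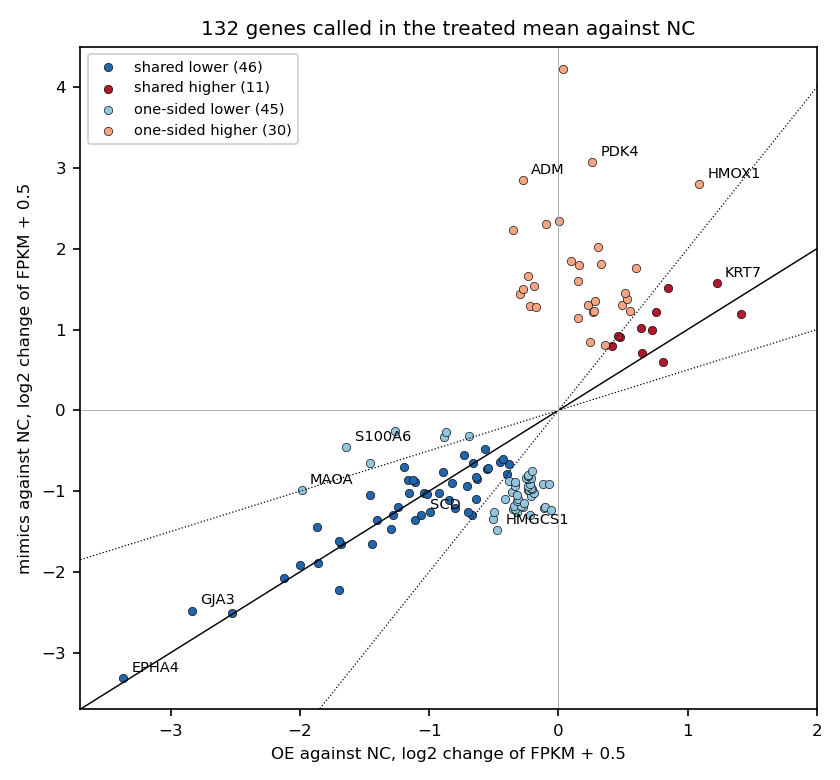
Each point is one of the 132 genes called in the treated mean against NC, with its log2 change in OE against NC on the x axis and in mimics against NC on the y axis, both of FPKM + 0.5. The solid line marks equal change and the dotted lines changes that differ by a factor of 2. The 46 shared lower genes lie along the line of equal change down to EPHA4, whereas the 30 one-sided higher genes rise along the mimics axis.

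The 46 shared lower genes (0.372% of all tested) fell by nearly the same amount in both groups. Their median log2 change was -1.05 in OE and -1.07 in mimics, and -1.01 in the treated mean, with a range of -3.34 to -0.51. The median over all tested genes was -0.02 in OE and -0.00 in mimics. The absolute difference between the OE and mimics changes had a median of 0.18 and a maximum of 0.63. Directly between OE and mimics, 1 of the 46 passed (YBX2). All 46 passed in mimics against NC and 18 passed in OE against NC. The half-size condition itself limits how far the changes can differ, so this closeness is a description. On the scale of FPKM the treated mean was 0.0252 to 0.700 of the NC mean, with a median of 0.441. EPHA4, GJA3 and RGMA passed in every alternative run, 17, 16 and 16 in number. The number of shared lower genes was 3 and 6 without NC replicate 1 and 2, 22 and 21 without OE replicate 1 and 2, and 107 and 211 without mimics replicate 1 and 2, and all 46 kept a negative change in each of these fits. The NC libraries differed from each other by a median of 0.10 on the log2 scale, and by at most 1.21, in AL445685.3.

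EPHA4, a receptor tyrosine kinase for ephrins that steers axons and cell contacts, showed the largest fall of all. It lies on chromosome 2 from 221418027 to 221574202 on the minus strand. Its level was 10.3 and 10.1 FPKM in the NC libraries, 0.579 and 0.499 in OE, and 0.800 and 0.388 in mimics. All 4 treated libraries lay far below both controls. Lying below both is a condition of the shared class, a position held by 10.5% of all tested genes. The log2 change was -3.34 in the treated mean (95% confidence interval -3.75 to -2.94, limma, adjusted p = 0.000314). OE and mimics differed by -0.05 (-0.52 to 0.42, limma, adjusted p = 0.904).

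The connexin GJA3, which forms gap junction channels and is best known from the lens, was at 4.36 and 4.24 FPKM in NC, 0.169 and 0.174 in OE, and 0.456 and 0.273 in mimics. The treated libraries formed a low group, with OE slightly under mimics, and GJA3 fell by 2.66 on the log2 scale (SE 0.16, limma, adjusted p = 0.000389). The interval of the difference between OE and mimics was -0.78 to 0.07. RGMA, a membrane-anchored guidance molecule that repels axons and acts as a co-receptor for bone morphogenetic proteins, was at 2.94 and 3.22 FPKM in NC, 0.0512 and 0.201 in OE, and 0.0743 and 0.181 in mimics. Its log2 change was -2.52 in each group (treated mean adjusted p = 0.000923, limma), and in both groups replicate 1 was the lower library. Of the 29 tested axon guidance receptors and ligands, EPHA4 and RGMA were the 2 that fell, against 0.736% of all tested genes, and 0 rose. The list was chosen with earlier results of these data known, so its count is a description. Its median was 0.02 in the treated mean. EPHA3 and EFNA5 lay above both NC libraries in all 4 treated libraries without passing (log2 changes of 0.19 and 0.54).

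**Figure D2:**
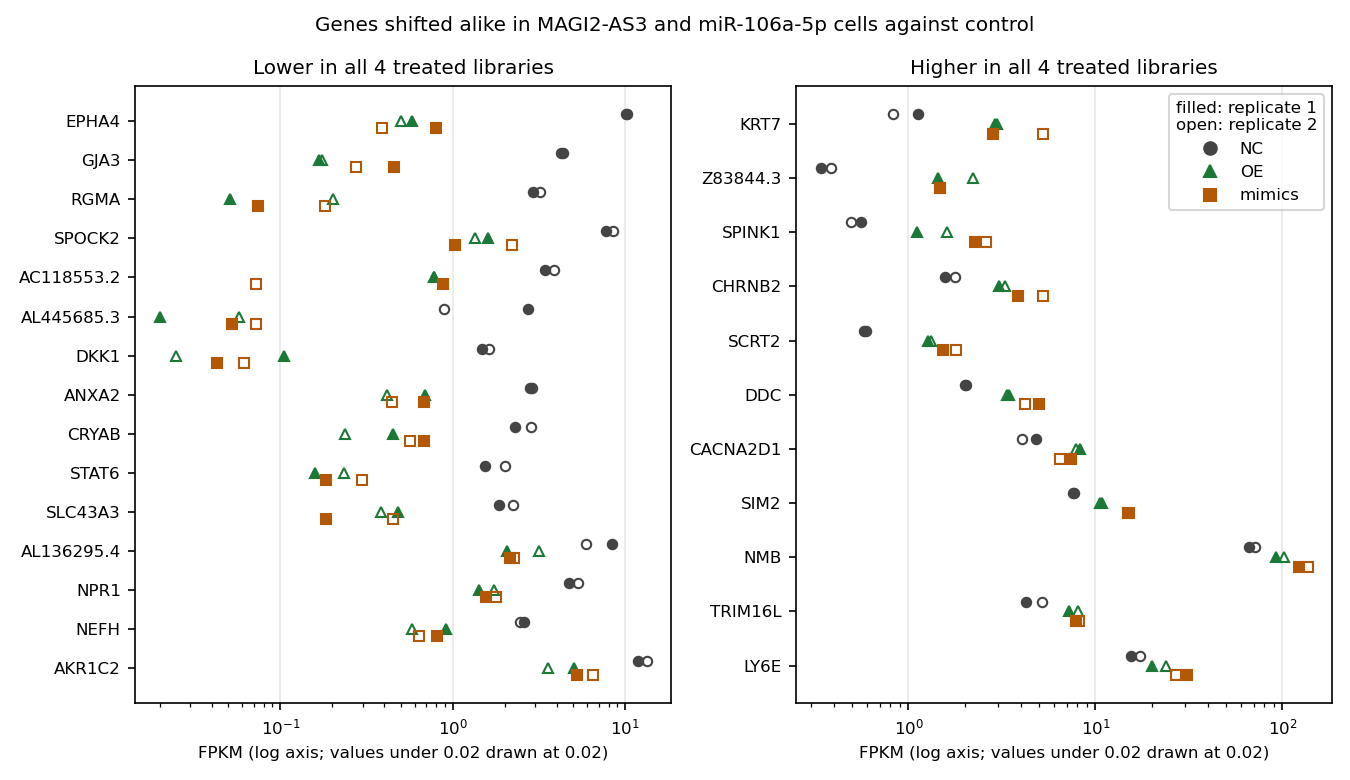
FPKM of each library (log axis) for the 15 shared genes with the largest fall (left) and the 11 shared genes that rose (right), with circles for NC, triangles for OE and squares for mimics, filled for replicate 1 and open for replicate 2. In every row the 2 control libraries stand apart from the 4 treated ones, which the selection of shared genes requires. The OE and mimics symbols mostly intermix on the left.

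Other secreted and surface proteins followed the same order. SPOCK2, a proteoglycan of the extracellular matrix, was at 7.72 and 8.49 FPKM in NC and between 1.04 and 2.22 in the treated libraries (log2 change -2.10, limma, adjusted p = 0.00568). DKK1, a secreted inhibitor of WNT signalling, was at 1.47 and 1.62 FPKM in NC and at 0.105, 0.0249, 0.0432 and 0.0616 in OE and mimics (-1.87, adjusted p = 0.00437). It was the only one of 20 tested WNT regulators and targets to pass in the treated mean by limma. Of all tested genes, 0.736% fell past the threshold, and this list too was chosen with earlier results of these data known. NPR1, the receptor for atrial natriuretic peptide, was at 4.73 and 5.31 FPKM in NC and 1.43 to 1.77 in the treated libraries (-1.38, adjusted p = 0.00568). Like every shared gene, these 3 had no overlap between control and treated libraries, because the class requires it. NELL2, a secreted neural glycoprotein, fell by 1.01, COL9A3, a chain of cartilage collagen, by 1.09, CACNG4, an auxiliary subunit of calcium channels, by 1.03, and TSPAN13, a tetraspanin, by 0.64. ATP1B1, the beta subunit of the sodium pump, was one of the more abundant members at 67.0 and 67.7 FPKM in NC and 25.3 to 33.3 in the treated libraries (-1.22, adjusted p = 0.00494).

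Among cytoskeletal and stress proteins, ANXA2, a calcium-dependent membrane-binding annexin, was at 2.81 and 2.88 FPKM in NC, 0.692 and 0.413 in OE and 0.683 and 0.445 in mimics (log2 change -1.67, limma, adjusted p = 0.00685). Its replicates 1 were the higher library in OE and in mimics, and all 4 lay under NC. NEFH, the heavy neurofilament chain, fell by 1.29, SCIN, an actin-severing protein, by 0.86, FLII, an actin-binding gelsolin relative, by 0.83 and MYO1D, an unconventional myosin, by 0.64. CRYAB, a small heat shock protein, fell by 1.66 (adjusted p = 0.00685), but it lies antisense to HSPB2, and without stated strand use in the counting the reads of the pair cannot be told apart. The same holds for STAT6, the transcription factor of interleukin 4 signalling (-1.66), which lies antisense to LRP1 and NAB2.

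LMO4, a LIM-domain partner of transcription factors, was at 19.4 and 18.05 FPKM in NC, 8.58 and 8.22 in OE, and 6.54 and 7.43 in mimics (-1.23, limma, adjusted p = 0.00214). KLF5, a zinc finger factor of epithelia, fell by 0.52, and YBX2, a germ cell Y-box protein, by 0.98 with a larger change in mimics (-1.29) than in OE (-0.67, difference adjusted p = 0.0291). AKR1C2, which reduces dihydrotestosterone, was at 11.8 and 13.3 FPKM in NC and 3.57 to 6.49 in the treated libraries (-1.25, limma, adjusted p = 0.0111). It has close paralogs in the AKR1C family, so its reads are uncertain to that extent. Falls were also called in the mitochondrial enzymes NNT (-0.98), which makes NADPH, and BDH1 (-0.98), which interconverts ketone bodies, in HSD17B7 (-0.63) of sterol and estrogen synthesis, in NAT1 (-0.74), an arylamine acetyltransferase, and in PLTP (-0.997), a phospholipid transfer protein. MIEF2, a regulator of mitochondrial fission, fell by 0.99 and CRK, a signalling adaptor, by 0.55.

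The other shared lower genes fell by 0.51 to 1.96 on the log2 scale. They were the cilium genes ZMYND10 and TMEM107, the pore-forming protein gene GSDMD, the galectin gene LGALS7B, whose near-identical copy LGALS7 makes its reads uncertain, the transporters SLC43A3 and SLC37A1, TMTC1, ACBD7, FAM57B, GET4 and MEA1, and the sterol genes described with their list. The members AC118553.2, AL445685.3 and AL136295.4 share exons with neighbouring genes, so the assignment of their reads is uncertain. AL445685.3 was listed at 0 in OE replicate 1 and its controls were unequal, at 2.72 and 0.892 FPKM. In all, 9 of the 46 share exons with another gene on the same strand, RGMA among them, and 17 on the opposite strand, among them EPHA4, DKK1, ATP1B1, NEFH and NNT, so their reads could include those of the partner. In 14 of the 46 the treated mean was under 1 FPKM, where the log2 of FPKM + 0.5 understates a change.

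Fewer genes were shared in the upward direction. The 11 (0.089% of all tested) rose by 0.60 to 1.40, with medians of 0.73 in OE and 0.99 in mimics, and 9 of them had the larger change in mimics. These calls depended on both NC libraries. The genes that were shared higher with either NC library left out were different genes from the 11. With each library left out in turn, all 11 kept a positive change. KRT7, a keratin of simple epithelia, was at 1.13 and 0.829 FPKM in NC, 2.90 and 2.97 in OE and 2.82 and 5.27 in mimics (log2 change 1.40, 95% confidence interval 0.90 to 1.90, limma, adjusted p = 0.0281). SPINK1, a secreted trypsin inhibitor that marks a subset of prostate cancers, was at 0.561 and 0.491 FPKM in NC, 1.11 and 1.61 in OE, and 2.26 and 2.61 in mimics (1.18, adjusted p = 0.0196). The groups did not overlap for either gene, which the shared class requires, and SPINK1 was ordered NC, OE, mimics.

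Among the other shared higher genes, CHRNB2, a nicotinic acetylcholine receptor subunit, rose by 0.99, SCRT2, a neural zinc finger repressor, by 0.86, DDC, which makes dopamine and serotonin, by 0.83, CACNA2D1, a calcium channel subunit, by 0.70, SIM2, a transcription factor of the midline, by 0.69 and the peptide gene NMB, neuromedin B, by 0.69. These genes were named by size of change and not tested as a group. In the neuroendocrine list, 1 of 6 tested members rose past the threshold (0.332% of all tested genes did), CHGB, a granule protein. CHGB was one-sided. NMB was the most abundant of the 11, at 66.6 and 71.6 FPKM in NC, 91.9 and 101 in OE, and 123 and 136 in mimics. Directly between OE and mimics NMB and SIM2 passed (limma, adjusted p = 0.0493 and 0.0370). TRIM16L, a tripartite motif gene, rose by 0.68, LY6E, a lipid-anchored surface protein, by 0.60, and Z83844.3, which shares exons with PDXP and SH3BP1, by 1.31.

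The 75 one-sided genes failed the side or the size condition. Some of them, such as MAOA and HMOX1, changed in both groups. The 75 were set apart by unequal OE and mimics changes. The differences between OE and mimics given for them are therefore a description, with no test. Of the 75, 9 had changes of opposite sign, and in 14 the control and treated libraries overlapped. Of the 45 that fell, 38 fell further in mimics and 7 further in OE. All 30 that rose had the larger change in mimics. MAOA, the mitochondrial oxidase of serotonin and noradrenaline, had the largest fall among them, with 14.7 and 14.4 FPKM in NC, 3.04 and 3.58 in OE, and 8.54 and 5.91 in mimics (treated mean -1.49, adjusted p = 0.00568). It was thus lower in all 4 treated libraries and lowest in OE (interval of the difference between OE and mimics -1.40 to -0.61). A2M, a protease-trapping serum protein (-1.06), and S100A6, a calcium-binding protein (-1.05), also fell further in OE. HMGCS1 (-0.98) and PIMREG, a mitotic regulator (-0.93), fell further in mimics.

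HMOX1, which breaks down heme under oxidative stress, rose in both groups but unequally. It was at 6.14 and 6.08 FPKM in NC, 13.6 in both OE libraries, and 51.3 and 40.6 in mimics. The 3 groups formed 3 separate levels, and HMOX1 passed in OE (1.09, limma, adjusted p = 0.0129) and in mimics (2.80, adjusted p = 4.82e-05). PDK4, which slows pyruvate oxidation, ADM, a vasodilator peptide, and HBE1, embryonic globin, rose by 1.67, 1.29 and 1.18 in the treated mean, with OE changes of 0.26, -0.28 and 0.60 and mimics changes of 3.08, 2.86 and 1.76. For ADM the OE libraries lay under both controls (0.775 and 0.863 against 0.880 and 1.34 FPKM), so its call in the treated mean was carried by mimics. The readthrough gene ATP6V1G2-DDX39B, which shares exons with both its partners, was listed at 0 in NC and in OE replicate 1, and at 8.65 and 9.04 FPKM in mimics.

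Cholesterol and fatty acid synthesis was the list with the most members below both NC libraries in all 4 treated libraries. Of its 24 tested genes 6 fell (0.736% of all tested genes did) and 0 rose in the treated mean, all 24 had a negative change, and 20 lay below both NC libraries in all 4 treated libraries, a position held by 10.5% of all tested genes. The median log2 change was -0.56 in the treated mean, -0.38 in OE and -0.75 in mimics, against -0.01 over all genes in the treated mean. SCD, which makes monounsaturated fatty acids, was at 114 and 122 FPKM in NC, 55.1 and 57.5 in OE, and 65.1 and 34.8 in mimics (-1.18, limma, adjusted p = 0.0419). SQLE, squalene epoxidase, was at 21.5 and 23.1 FPKM in NC, 13.8 and 13.2 in OE, and 11.8 and 6.93 in mimics (-0.98, adjusted p = 0.0469). For both genes mimics replicate 2 was the lowest library. FDFT1, squalene synthase, fell by 0.73 and was the third shared member. Among the one-sided members was HMGCS1, which makes the precursor HMG-CoA, with a fall of 0.98 and the larger change in mimics.

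Mitosis genes had the same median in the treated mean, -0.56, with 6 of 22 called lower against 0.736% of all tested genes. Their median was -0.11 in OE and -0.97 in mimics, and 0 were shared. In all 4 treated libraries 11 of 22 lay below both NC libraries, a position held by 10.5% of all tested genes. PLK1, a mitotic kinase, was at 67.7 and 73.7 FPKM in NC, 54.4 and 58.7 in OE, and 26.0 and 33.0 in mimics (-0.79, limma, adjusted p = 0.0188). CCNB1, cyclin B1, fell by 0.74 and AURKB, the kinase of the chromosomal passenger complex, by 0.69. Among 25 DNA replication genes 0 passed in the treated mean, with a median of -0.22.

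Targets of NRF2, the transcription factor that answers oxidative stress, had a positive median. Of 17 tested members 3 rose (0.332% of all tested genes did) and 0 fell, 8 lay above both NC libraries in all 4 treated libraries (7.22% of all tested genes did, and 17.7% lay on either side), and the median was 0.32 (0.22 in OE and 0.49 in mimics). HMOX1 and NQO1, a quinone reductase (0.90, limma, adjusted p = 0.0124), were one-sided and TRIM16L was shared. TXNRD1, thioredoxin reductase, did not pass (adjusted p = 0.0525), though its 4 treated libraries lay at 125 to 138 FPKM against 91.5 and 95.2 in NC. Of 22 p53 targets 2 rose, CDKN1A (0.98), the cell cycle inhibitor p21, and GDF15 (1.17), a stress cytokine, both one-sided, and the list median was 0.24. Of 25 ribosomal proteins 0 passed, although all 25 had a positive change and the median was 0.38. Ribosomal protein genes took 13.03% to 15.4% of the FPKM sum in NC and OE and 20.5% and 18.1% in mimics. Of 18 hypoxia and glycolysis genes 4 rose, ADM, VEGFA, P4HA1 and PFKFB3, with list medians of -0.27 in OE and 1.24 in mimics. The members of the lists are not independent replicates, and their scatter moves together within a library. The lists were chosen with earlier results of these data known, so their counts are a description.

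**Figure D3:**
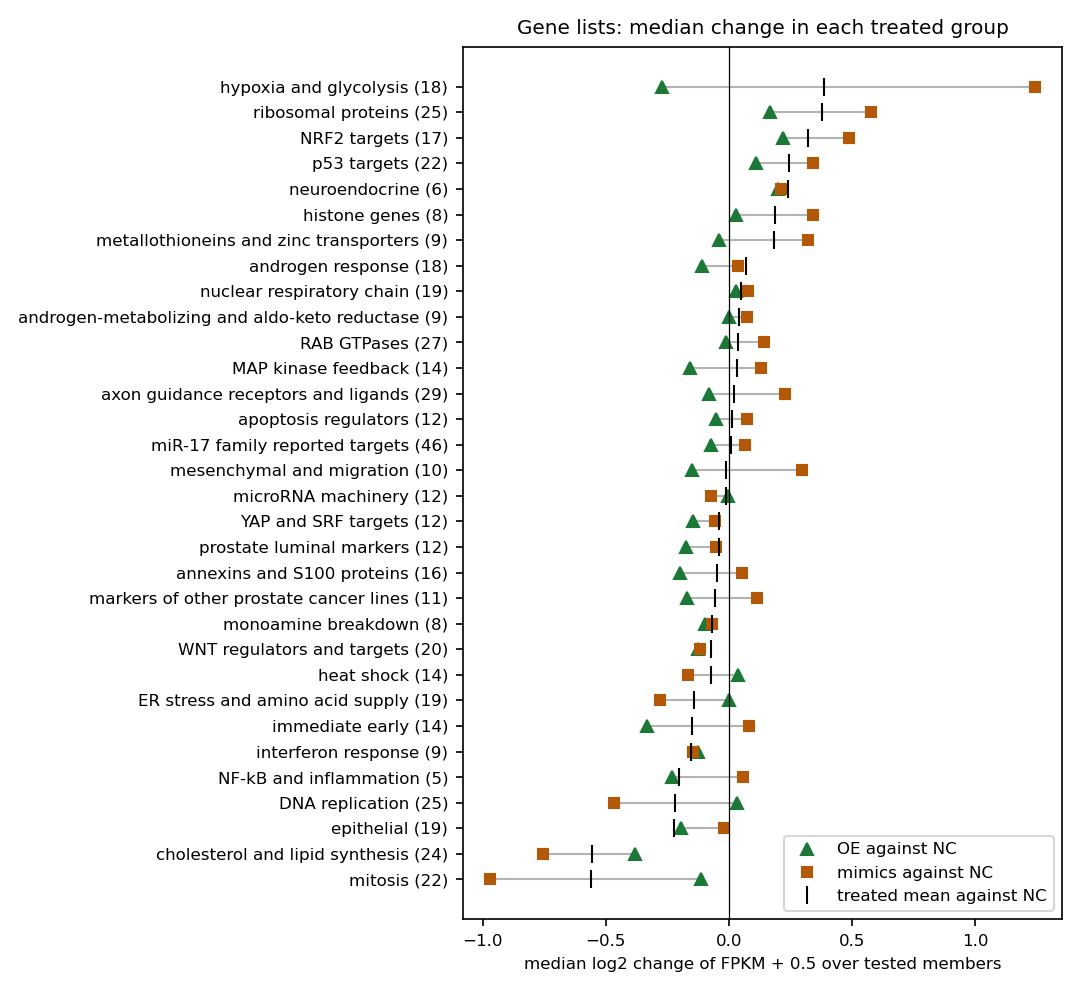
Median log2 change of FPKM + 0.5 over the tested members of each gene list (number of members in parentheses), with triangles for OE against NC, squares for mimics against NC and bars for the treated mean. Cholesterol and lipid synthesis is low in both groups (-0.38 and -0.75), whereas mitosis (-0.11 and -0.97) and hypoxia (-0.27 and 1.24) differ between them.

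Of 46 tested reported targets of the miR-17 family, which shares the seed of miR-106a-5p, 2 fell and 2 rose in the treated mean (0.736% and 0.332% of all tested genes did), and the median was 0.01. In mimics against NC 6 of the 46 rose and 1 fell (4.5% and 4.06% of all tested genes did), with a median of 0.06, and in OE against NC 0 rose and 2 fell (0.0162% and 0.267%). The falls were in EPHA4 and F3, tissue factor (-0.57), and the rises in CDKN1A and VEGFA. Seed matches in the 3′ UTR were found in 13 of the 44 shared lower genes with an annotated UTR (29.5%) and in 2 of 11 shared higher genes (18.2%). They were found in 7 of 45 one-sided lower genes (15.6%) and in 7 of 29 one-sided higher genes with a UTR (24.1%). The share was 3034 of 12224 tested genes overall (24.8%). The shared lower UTRs had a median length of 1063 bases against 1338 overall. EPHA4, GJA3 and RGMA, whose matches are printed above, changed by -3.37, -2.84 and -2.52 in OE, whose label names no microRNA, and by -3.32, -2.48 and -2.52 in mimics. RAB31, the GTPase named in the series title, did not pass in the treated mean (0.36, adjusted p = 0.288): it was at 1.85 and 1.60 FPKM in NC, 0.980 and 0.986 in OE, and 4.82 and 5.18 in mimics. MAGI2, the gene antisense to the start of MAGI2-AS3, was at 0.610 and 0.849 FPKM in NC and 0.587 to 1.12 in the treated libraries (0.13, adjusted p = 0.793).

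The promoters of the 4 shared genes with the largest fall are printed because these genes moved together. Each covers 300 bases around the annotated start, most of them upstream, 5′ to 3′ on the gene's strand (RefSeq, GRCh38.p14). Capitals mark matches, on either strand, to any of 7 searched motifs. The AP-1 motif was written TGANTCA, and that of CRE was TGACGTCA. For EGR the letters were GCGNGGGCG, for the E-box they were CACGTG, and for SREBP they were TCACNCCA. The NRF2 motif was searched as TGANNNNGC and the TATA motif as TATAAA. The motifs were searched separately, and overlaps between them were allowed. They lie at chr2:221574153-221574452 (EPHA4), chr13:20161003-20161302 (GJA3), chr15:93089162-93089461 (RGMA) and chr10:72088983-72089282 (SPOCK2), all on the minus strand.
EPHA4 promoter: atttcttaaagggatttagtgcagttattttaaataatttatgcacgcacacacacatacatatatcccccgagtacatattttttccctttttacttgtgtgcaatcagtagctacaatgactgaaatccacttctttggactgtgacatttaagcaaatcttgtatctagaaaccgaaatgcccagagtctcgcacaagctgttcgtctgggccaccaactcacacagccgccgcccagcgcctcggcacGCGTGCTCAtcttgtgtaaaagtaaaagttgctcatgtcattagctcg
GJA3 promoter: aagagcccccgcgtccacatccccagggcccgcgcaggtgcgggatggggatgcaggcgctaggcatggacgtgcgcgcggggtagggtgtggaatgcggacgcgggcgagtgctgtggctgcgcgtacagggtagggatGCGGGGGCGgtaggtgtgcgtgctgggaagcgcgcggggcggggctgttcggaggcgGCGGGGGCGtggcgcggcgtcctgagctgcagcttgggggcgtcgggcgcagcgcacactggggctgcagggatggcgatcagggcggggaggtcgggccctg
RGMA promoter: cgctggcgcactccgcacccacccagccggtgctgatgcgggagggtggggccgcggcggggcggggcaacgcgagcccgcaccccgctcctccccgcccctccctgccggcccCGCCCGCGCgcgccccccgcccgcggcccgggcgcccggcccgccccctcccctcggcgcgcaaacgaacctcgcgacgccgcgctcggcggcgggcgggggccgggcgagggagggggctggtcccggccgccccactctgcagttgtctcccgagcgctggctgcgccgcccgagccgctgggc
SPOCK2 promoter: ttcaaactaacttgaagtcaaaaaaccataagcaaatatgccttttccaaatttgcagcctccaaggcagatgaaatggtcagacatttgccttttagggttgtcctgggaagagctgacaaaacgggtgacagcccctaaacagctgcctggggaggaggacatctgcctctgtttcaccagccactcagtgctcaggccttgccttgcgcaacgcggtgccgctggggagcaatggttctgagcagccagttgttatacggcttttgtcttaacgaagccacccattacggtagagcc
EPHA4 had 1 match, to the NRF2 motif and just downstream of the start, GJA3 had 2 and RGMA 1 to the EGR motif, and SPOCK2 had none of the 7. No motif was thus common to the 4. Over the 31 shared lower genes with a promoter in the table, 8 (25.8%) held an EGR match, against 15.9% of 9770 tested genes and 9.28% of all 27305 promoters. The NRF2 motif was in 11 (35.5%) against 43.1%, TATA in 4 (12.9%) against 5.08%, AP-1 in 2 (6.45%) against 4.09%, and the SREBP and E-box motifs in 1 each (3.23%) against 3.42% and 10.5%. CRE was in 0 against 3.23%. The median GC content was 65.7% both in the 31 and in all tested promoters. Of the EGR factors, EGR3 was at 7.22 and 8.41 FPKM in NC, 3.32 and 3.51 in OE, and 3.43 and 1.16 in mimics. It did not pass (-1.39, limma, adjusted p = 0.0679), nor did EGR1 (-0.89, adjusted p = 0.340). The part of these factors in the falls was not tested, and factors of the other motifs were not compared in this way.

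Along the genome, a region of chromosome 17 was low in both groups. On chromosome 17 the genes before the widest gap between neighbouring tested genes (21574517 to 27294076), which lie on the short arm, had a lower median in all 4 treated libraries. The region was looked for after the values were seen, so it is given as a description with no test. Its 227 tested genes, from 410327 to 21574517, had a median log2 change of -0.22 in the treated mean, which is a median change of -13.97%. It was -0.24 in OE and -0.22 in mimics, and the median difference between OE and mimics was -0.01. Relative to the NC mean, the median of these genes was -0.03 and 0.03 in the NC libraries, -0.24 and -0.22 in OE, and -0.31 and -0.13 in mimics. The 4 treated libraries thus all lay under both controls.

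Within the region, 198 of the 227 genes (87.2%) had a negative change, against 51.9% on the other chromosomes. All 4 treated libraries lay below both NC libraries for 109 genes (48.0%), against 9.82% on the other chromosomes and 10.5% of all 12360 genes. The reverse, all 4 above, held for 4 genes (1.76%) against 7.41%. The 532 tested genes after the gap on the same chromosome had a median of -0.04, and 51 of them (9.59%) lay below both controls in all 4. In 400 windows of 50 neighbouring genes with a mean of at least 2 FPKM, the 7 lowest medians, from -0.28 to -0.16, all began in the region. All other windows outside it lay between -0.13 and 0.10. In OE alone the same 7 windows were the lowest. In mimics alone 2 of the 7 (-0.16 and -0.15) lay above 2 windows elsewhere, of which the lowest was -0.18, on chromosome 11. Of the 227 genes 8 fell (3.52%, against 0.736% of all tested genes) and 1 rose past the threshold. The shared falls were FLII, MIEF2, CRK, YBX2 and TMEM107, so 5 of the 46 shared lower genes lie there (2.20% of the 227, against 0.372% of all tested genes). FLII and MIEF2 are neighbours, with 1617 bases between them. The one-sided falls were AURKB, PIMREG and CTNS, a lysosomal cystine transporter, and the rise was TRIM16L. DNA copy number was not measured, and its part in this pattern was not tested. A difference that belongs to the NC cells and one that belongs to both treated groups cannot be told apart. The mimics median of the region was -0.13 without mimics replicate 1 and -0.31 without mimics replicate 2.

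**Figure D4:**
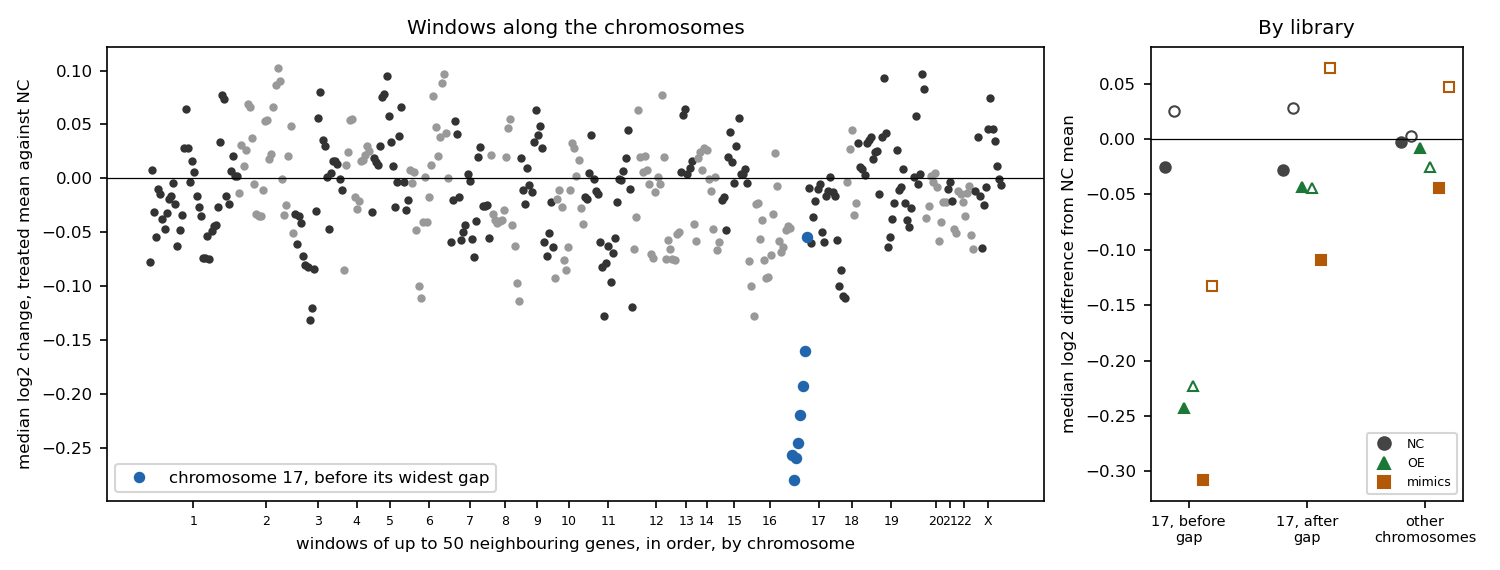
Left, median log2 change of the treated mean against NC in windows of up to 50 neighbouring genes, in chromosomal order (alternating greys), with windows that begin before the widest gap of chromosome 17 in blue. Right, median log2 difference of each library from the NC mean for the genes before that gap, after it and on all other chromosomes, with the 4 treated libraries at -0.31 to -0.13 before the gap.

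By the adjusted p of the treated mean, the shared genes just inside the threshold were LY6E (0.0478) and SQLE (0.0469). Just outside it, among the genes that met the same side and size conditions, was TXNRD1 (0.0525).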

How the data were processed

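RNA sequencing of 6 libraries was analysed, 2 each of NC, OE and mimics, grouped by the genotype and titles in the labels. Per the labels' protocols, TRIzol RNA went into mRNA libraries of the Hieff NGS Ultima series. The submitters' processing notes list HISAT2 2.0.4 and the build GRCh38. How fragments were counted, with which gene models and whether by strand, is not stated in any source used here. The authors deposited FPKM values, 1 column per library, which divide by transcript length and library total, so a large change in abundant transcripts shifts every other value. Read counts were not recovered. The depth of 15900000 to 22400000 fragments is approximate, read from the step of FPKM times length in 2775 genes with 1 transcript (23 to 37 genes per library at the step, tolerance 0.2%, and 2 to 12 at 0.5 of it), so the replicate spread serves as the measure of precision.

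Of 24872 rows, 19974 had an Ensembl gene ID, all found in GENCODE 29, and 4898 were new genes. Rows averaging 0.5 FPKM or more (12360 annotated and 1638 new) entered limma 3.58.1 (R 4.3.3) as log2(FPKM + 0.5), in a single model of 3 groups with an intensity trend. It had 3 residual and 5.67 prior degrees of freedom. Tests were two-sided, with Benjamini-Hochberg adjustment over 13998 rows and a threshold of 0.05. Fold changes on this scale understate those of low genes. The treated mean is (OE + mimics)/2 against NC, and it shares the NC libraries with both component comparisons. The script was tested on simulated data. Named were the 15 shared genes with the largest change in each direction, the 5 largest one-sided genes in each direction, RAB31 and MAGI2, up to 3 called members of each list, and the genes next to the threshold. The other shared lower genes, the genes that complete a small count, EPHA3, EFNA5, EGFR and CD44 were named after their values were seen. The members and the gene lists were chosen with earlier results of these data known. Alternatives covered the pseudocount, filter, scaling, model, trend, replicate number, each library left out, and annotated rows alone. A library left out leaves 1 in its group, whose spread is then taken from the other groups. Some members of the lists are counted but not reported by name here.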

Additional observations from a re-analysis of the deposited data

How the results depend on the processing

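The number of annotated genes called in the treated mean against NC, 132, was 7 without a filter on expression, 11 in a model of 4 treated against 2 NC libraries, 54 without the intensity trend and 8 to 1204 when each library was left out in turn. Shared lower genes, 46, were 5, 11 and 28 under the first 3 of these and 3 to 211 with a library left out, and shared higher genes, 11, were 0, 0 and 6, and 0 to 67. Shared higher genes were 7 after rescaling without the mitochondrially encoded genes and 17 in a fit of annotated rows only. Without the filter, in a fit over 21946 rows, the annotated calls were 0 in place of 35 in OE against NC (limma, 1334 rows at an unadjusted p under 0.05), 284 in place of 1058 in mimics against NC and 267 in place of 1039 in OE against mimics. With a library left out they ranged over 5 to 115, 65 to 2824 and 129 to 2601. The cause of these shifts was not tested.

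Whether replicate numbers pair the samples could not be settled with 2 libraries per group. The correlation of deviations was 0.15 for NC and OE, -0.03 for NC and mimics, and 0.02 for OE and mimics. With the replicate block the calls were 46 in the treated mean and 9 in OE against NC, with 20 shared lower and 2 shared higher genes.

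All 57 shared genes that were tested kept their direction under every alternative. The chromosome 17 median was -0.26 to -0.18 in the treated mean under all alternatives, and in mimics it was -0.30 after the rescaling and -0.31 to -0.13 with a library left out. Among named genes that did not pass, MAGI2 ranged over -0.0152 to 0.265, TARBP2 over -0.186 to 0.00566 and KRT15 over -0.208 to 0.0542 with a library left out, so that each changed sign. Single named genes stayed on the same side of the threshold in 1173 of their refits, lost it in 291 and gained it in 41. Depth limits the genes under about 1 FPKM, which rest on few fragments.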

Other observations

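Further lists had few or no members past the threshold in the treated mean. They too were chosen with earlier results of these data known, so their counts are a description. Of 19 epithelial genes 0 passed by limma and 7 lay below both NC libraries in all 4 treated libraries (10.5% of all tested genes did), with a list median of -0.22. CLDN3, a tight junction protein, was at 2.17 and 3.33 FPKM in NC and 1.41 to 2.01 in the treated libraries (log2 change -0.63, limma, adjusted p = 0.192). Of 9 metallothioneins and zinc transporters 2 rose (0.332% of all tested genes did), MT1G (1.17) and MT1X (0.94), both one-sided with OE changes of 0.00 and -0.35. Of 16 annexins and S100 proteins 2 fell (0.736% of all tested genes did), ANXA2 and S100A6, and of 14 heat shock genes 1 fell, CRYAB. Of 14 immediate early genes 0 passed and 5 lay below both NC libraries in all 4 treated libraries (again beside 10.5%), among them EGR1 and EGR3. Among the 1638 new gene rows tested, 2 passed in the treated mean.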
